A study of Mus musculus with 6 samples.

Results

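Tff3 and Areg, 2 genes that encode secreted factors of epithelial repair, were followed through the liver transcriptomes of Mul1(+/+) and Mul1(−/−) mice on a high-fat diet (HFD). Both were taken by name and identifier from a table of 3542 genes, and they were chosen because their high values in Mul1(−/−) HFD-liver were already known. They were thus selected on the genotype contrast of these libraries, the contrast by which the authors had also picked the genes of the table. For both genes this contrast is given as a description, without a test.

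mRNA-seq was carried out on liver from 3 Mul1(+/+) and 3 Mul1(−/−) mice, all kept on HFD for 16 weeks. Mul1 encodes a mitochondrial E3 ubiquitin ligase, and the knockout affects the whole body, so a difference in liver need not start in liver. The labels call the cell type hepatocytes while about 100 mg of tissue went into each library, so RNA of bile duct, immune and vessel cells can be part of the sample. The labels give neither the sex nor the strain of the 6 mice, and all values from the table are read counts divided by 1 factor per library, called normalized counts below.

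Trefoil peptides are small secreted proteins, held in shape by disulfide bonds, that protect mucosal surfaces and promote the migration of epithelial cells over a wound. Tff3 is the member made by intestinal goblet cells, and in the liver it is known from the epithelium of the bile ducts. Areg encodes amphiregulin, a ligand of the epidermal growth factor receptor (EGFR) that is made as a membrane-bound precursor, released by a protease, and known to be scarce in resting liver and induced after liver injury.

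Tff3 (ENSMUSG00000024029) lies on chr17:31125306-31129646 on the minus strand of GRCm38 and has 1 annotated transcript of 493 bases in 3 exons. Areg (ENSMUSG00000029378) lies on chr5:91139599-91148432 on the plus strand and has 1 annotated transcript of 1215 bases in 6 exons. The table writes the symbol Mcub beside the identifier of Areg. RefSeq lists Mcub as a synonym of Areg, although the name is now used for another gene, a subunit of the mitochondrial calcium channel. The identifier of that other gene has 0 rows in the table, so the values below belong to Areg by identifier.

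The parts of both transcripts that carry the folded, active domains are shown because they distinguish the encoded factors. The first sequence is the whole Tff3 coding sequence of 246 bases with its stop codon, joined from 3 exons at chr17:31125483-31129576 on the minus strand. The second is the EGF-like module of Areg from its first to its last cysteine codon, 108 bases joined from 2 exons at chr5:91143614-91144364 on the plus strand. Capitals mark the codons for cysteine, the residue that forms the disulfide bonds.
Tff3 coding sequence: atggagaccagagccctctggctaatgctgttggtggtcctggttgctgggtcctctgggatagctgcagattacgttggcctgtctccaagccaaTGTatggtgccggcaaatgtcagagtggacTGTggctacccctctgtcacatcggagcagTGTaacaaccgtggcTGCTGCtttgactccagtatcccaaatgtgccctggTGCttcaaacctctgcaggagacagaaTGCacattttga
Areg EGF-like module: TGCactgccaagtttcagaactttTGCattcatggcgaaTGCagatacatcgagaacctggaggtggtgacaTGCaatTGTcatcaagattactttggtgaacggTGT

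The Tff3 reading frame has 81 codons, 7 of them for cysteine. The Areg reading frame has 248 codons, and all 6 of its cysteine codons fall between codons 139 and 174.

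Tff3 was close to the limit of detection in Mul1(+/+) HFD-liver and an abundant transcript in Mul1(−/−) HFD-liver. In Mul1(+/+) replicates 1 to 3 its normalized counts were 4.21, 8.86 and 10.6, made from 5, 10 and 13 reads. In Mul1(−/−) replicates 1 to 3 they were 1631, 2756 and 1318, made from 1116, 2250 and 1501 reads. The groups were far apart, and the lowest Mul1(−/−) value was 124-fold the highest Mul1(+/+) value. The mean went from 7.90 ± 3.31 to 1901 ± 756 normalized counts (SD, n = 3 per group), which is a ratio of 241. On the scale of log2(normalized count + 1) the difference was 7.75 with a standard error of 0.47. Pooled over the libraries, 28 reads in Mul1(+/+) stood against 4867 in Mul1(−/−), a ratio of 233 after scaling (95% exact interval 161 to 351, which covers counting error only). In bulk tissue, more cells that express a gene and more RNA of it per cell cannot be told apart.

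Areg was near 0 in every Mul1(+/+) library. Its normalized counts there were 0, 1.77 and 1.63, made from 0, 2 and 2 reads. All 3 values lie below the level of 3 reads, worth 2.45 to 2.66 normalized counts in these libraries, which a count of 0 still allows. In Mul1(−/−) replicates 1 to 3 it reached 153, 73.5 and 91.3 normalized counts, made from 105, 60 and 104 reads. The groups did not overlap, and the lowest Mul1(−/−) value was 41.5-fold the highest Mul1(+/+) value. The mean went from 1.13 ± 0.984 to 106 ± 42.0 normalized counts (SD, n = 3 per group). With only 4 reads in Mul1(+/+) against 269 in Mul1(−/−), the pooled ratio of 90.2 has a wide 95% exact interval of 34.8 to 333. The log2 difference of 5.72 (standard error 0.51) depends on the added pseudocount of 1: it was 7.20 with a pseudocount of 0.1 and 4.13 with a pseudocount of 5.

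**Figure D1:**
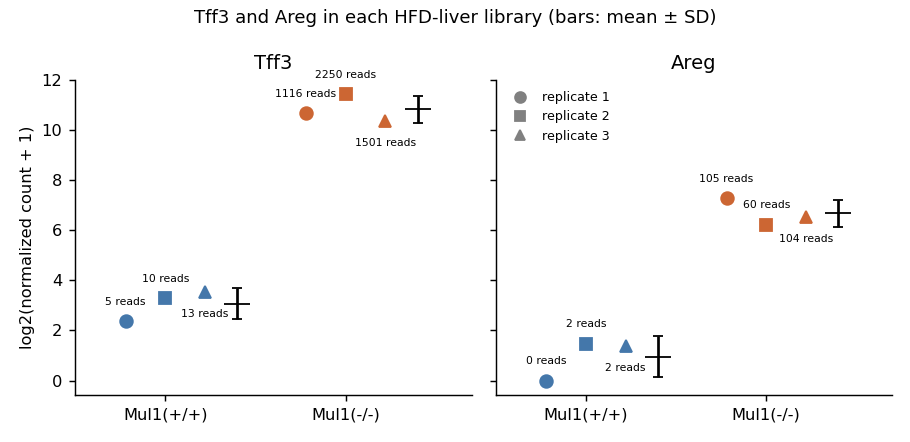
Normalized counts of Tff3 and Areg on the log2(normalized count + 1) axis in each library, with symbols for the replicates, the number of reads beside each point, and bars for the mean ± SD of 3 libraries. All Mul1(−/−) points lie above all Mul1(+/+) points for both genes, with Tff3 at 1318 or more and Areg at 73.5 or more normalized counts.

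Between the Mul1(−/−) mice the 2 genes did not keep the same order. Tff3 was highest in replicate 2, whereas Areg was highest in replicate 1 and lowest in replicate 2. The spread was of equal size for both genes, with a coefficient of variation of 39.8% for Tff3 and 39.6% for Areg and a ratio of 2.09 between the highest and the lowest library for each. For Tff3 the 95% Poisson interval was 2643 to 2872 normalized counts in replicate 2, 1536 to 1729 in replicate 1 and 1252 to 1387 in replicate 3. These intervals cover counting error alone, which is small at this many reads, and separate libraries rather than a group of mice. For Areg, replicate 1 (125 to 186) lay above replicate 2 (56.1 to 94.6) and replicate 3 (74.6 to 111), whereas replicates 2 and 3 could not be separated at this depth. In reads Areg was level in replicates 1 and 3, at 105 and 104. Its lead in replicate 1 over replicate 3 rests on the library factors, with 1 read worth 1.46 and 0.878 normalized counts. The order of Areg under other factors was not tested.

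Levels of the 2 genes were compared per kilobase of transcript, because Tff3 is the shorter RNA. Tff3 reached 3857 ± 1533 and Areg 87.3 ± 34.5 normalized counts per kilobase in Mul1(−/−) HFD-liver (SD, n = 3). The level of Tff3 per kilobase was 26.2, 92.4 and 35.6 times that of Areg in Mul1(−/−) replicates 1 to 3. The same ratio was 12.3 and 16.1 in Mul1(+/+) replicates 2 and 3, where it rests on 2 reads of Areg, and it has no value in replicate 1. Tff3 thus exceeded Areg in all 6 libraries, and in the 3 Mul1(−/−) libraries by a ratio that varied between mice.

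Among all genes of the table, Tff3 had the third largest log2 difference and Areg the next one, after Vmn2r3 (7.91) and Gldn (7.83). The order depends on the pseudocount: with 0.1 Tff3 was at rank 3 and Areg at rank 7, and with 5 Tff3 was at rank 1 and Areg at rank 7. By its mean in Mul1(−/−) HFD-liver Tff3 was at rank 702 of 3542 and Areg at rank 2551, while 9.60% of the genes had a lower Mul1(+/+) mean than Tff3. The table has 356 genes with no more than 13 reads in any Mul1(+/+) library, the highest count of Tff3. All 356 were higher in Mul1(−/−), which the authors' selection largely fixes for genes that start so low, and their median Mul1(−/−) mean was 31.8 normalized counts. Tff3 had the highest Mul1(−/−) mean of these genes, and the next was Vmn2r3 at 324. Of the 40 genes with no more than 2 reads in any Mul1(+/+) library, Areg had the third highest Mul1(−/−) mean, after Vmn2r3 and Gldn, against a median of 33.2. Of the 3542 genes, 49.3% were higher and 41% lower in Mul1(−/−) with no overlap of the groups. These are shares of a table selected on the same contrast, and nothing is read from them about Tff3 or Areg.

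**Figure D2:**
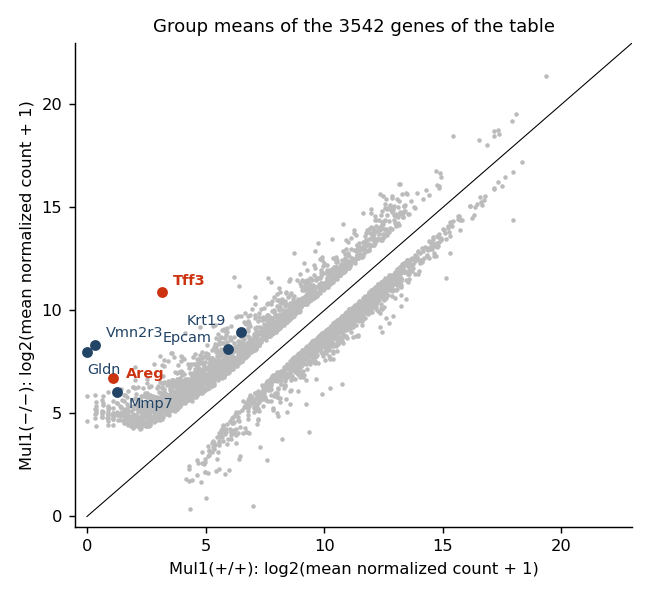
Mean normalized count + 1 of each of the 3542 genes in Mul1(+/+) (x axis) and Mul1(−/−) HFD-liver (y axis), both on a log2 scale, with the line of equal means. The empty band along the line is the authors' selection, and Tff3 (7.90 against 1901) and Areg (1.13 against 106) lie at the far upper left with Gldn and Vmn2r3.

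Transcript length moved with the direction of change in the table. The protein-coding genes were divided by transcript length into 10 bins of about equal size. Tff3 belongs to the bin of the shortest genes (297 to 602 bases), of which 75.8% were higher in Mul1(−/−), against 24.9% in the bin of the longest. The median log2 difference in the bin of Tff3 was 1.45, and the largest after Tff3 was 4.52. Areg is of medium length, in a bin (1061 to 1432 bases) where 57.0% were higher, the median was 1.07 and the largest value after Areg was 4.77. The part of length in the values of Tff3 and Areg was not tested.

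The genes whose pattern over the 6 libraries was most like that of Tff3 were found by the root mean square difference of log2 values, each taken from the gene's own Mul1(+/+) mean. Over 3539 other genes this difference had a median of 4.72. Gldn, the gene of an extracellular protein of nerve fibre nodes, was nearest at 0.40, with 0 reads in all 3 Mul1(+/+) libraries and 221, 410 and 127 normalized counts in Mul1(−/−) replicates 1 to 3. Vmn2r3, annotated as a vomeronasal receptor, was next at 0.67, with 221, 544 and 209 normalized counts in Mul1(−/−). Like Tff3, both were highest in Mul1(−/−) replicate 2. Areg was the third nearest at 1.54, followed by Cyp2a4, a steroid hydroxylase of the liver, at 2.06 and Slc6a7, a proline transporter, at 2.13.

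For Areg the median difference was 3.33 and the nearest gene was Mmp7 at 0.89, the gene of the secreted protease matrilysin. Mmp7 had 0.84, 2.66 and 0.82 normalized counts in Mul1(+/+) and 77.4, 78.4 and 38.6 in Mul1(−/−) replicates 1 to 3. Asns, which encodes asparagine synthetase, was next at 0.98, with 16.9, 22.1 and 40.0 normalized counts in Mul1(+/+) and 545, 567 and 660 in Mul1(−/−). Slc6a7 at 0.999 and Cfap44, a gene of the ciliary axoneme, at 1.03 followed. Tff3 was only at rank 15 for Areg. By its construction this measure weighs the size of a rise most, and how genes vary within a group least.

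The nearest genes hold for a pseudocount of 1 and are not stable. Gldn and Vmn2r3 have 0 or 1 read in each Mul1(+/+) library, so the pseudocount sets the size of their rise. With a pseudocount of 0.1 both lay at 2.32 from Tff3, at ranks 22 and 21, and Areg was at rank 2. With a pseudocount of 5 Vmn2r3 lay at 1.01 and Gldn at 1.20, at ranks 1 and 2, and Areg was at rank 6. For Areg, Mmp7 was at rank 10 with a pseudocount of 0.1, where Tff3 was nearest at 1.25, and at rank 3 with a pseudocount of 5.

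**Figure D3:**
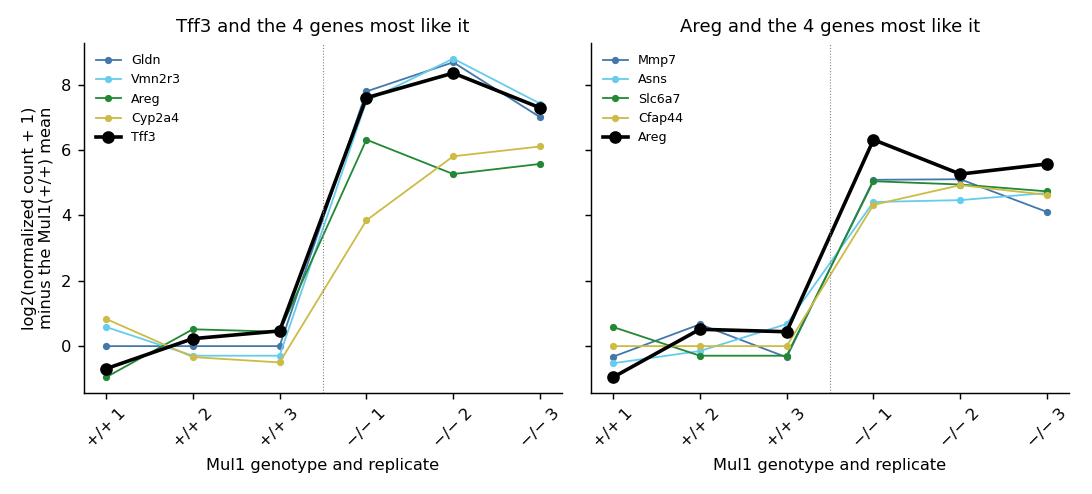
Difference of log2(normalized count + 1) from the gene's own Mul1(+/+) mean (y axis) in each of the 6 libraries (x axis), with the pseudocount of 1, for Tff3 and Areg and the 4 genes most like each of them. Gldn and Vmn2r3 peak with Tff3 in Mul1(−/−) replicate 2, where Areg is at its lowest of the 3 Mul1(−/−) libraries.

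The known partners of the 2 factors were sparse in the table. Of 175 genes in 11 lists of ligands, receptors, proteases, feedback genes and targets, the table held 26 other than Tff3 and Areg. Of these, 12 had higher and 14 had lower means in Mul1(−/−), while 56.8% of the table was higher. The median log2 difference was −1.07 against 1.12 over the table, but the selection left few genes near 0, so a median of genes that go both ways lies on 1 side of a gap and a few genes can turn it. The threshold was an adjusted p below 0.01 in limma together with a log2 difference of more than 1 in either direction, and 5 of the 26 passed it, 4 higher and 1 lower. The genes of the table were selected on this same contrast, so passing ranks them and is no independent test. Over all 3542 genes, 24.1% passed, 16.7% higher and 7.43% lower, so the listed genes passed about as often as the table. The libraries were also rescaled by the median ratio over the selected genes alone, which need not be closer to the true scale. After this rescaling 8 passed, 1 higher and 7 lower, against 236 higher and 1031 lower over the table. The count was 3 without Mul1(−/−) replicate 1, 0 without Mul1(−/−) replicate 2, 0 without any single Mul1(+/+) replicate and 13 without Mul1(−/−) replicate 3. The numbers at an unadjusted p-value under 0.05 in limma were 22 with all libraries, 20 without Mul1(−/−) replicate 2, and 15, 20 and 15 without Mul1(+/+) replicates 1 to 3. This limit says little here, since 96.4% of the table was under it with all libraries. Without Mul1(−/−) replicate 2 it held for 2740 genes of the table, and without Mul1(+/+) replicates 1 to 3 for 2471, 3039 and 2514.

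In the trefoil family, Tff1 and Tff2 were not analysed here. Both genes are neighbours of Tff3, with starts 35.6 and 14.6 kb upstream. Of 22 genes of the mucus layer and of proposed trefoil receptors, 2 were in the table and neither passed. Muc1, a membrane mucin of epithelial cells, measured 21.1, 40.7 and 27.8 normalized counts in Mul1(+/+) and 359, 56.3 and 63.2 in Mul1(−/−) (log2 difference 1.88, adjusted p = 0.0238 from limma). Fcgbp, a mucus protein that binds TFF3, overlapped between the groups, with 15.2, 11.5 and 8.98 against 177, 6.12 and 13.2 normalized counts. Both were highest in Mul1(−/−) replicate 1, not in replicate 2 where Tff3 peaked.

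Areg shares the EGF family with 10 other listed ligands, of which 2 were in the table and had higher means in Mul1(−/−). Nrg1, which encodes a ligand of ErbB3 and ErbB4, had 19.9 ± 8.31 normalized counts in Mul1(+/+) and 60.2 ± 24.0 in Mul1(−/−) (log2 difference 1.54, standard error 0.46, adjusted p = 0.0151 from limma). Nrg4, a ligand of ErbB4, had 161 ± 57.5 and 354 ± 60.3 (log2 difference 1.17, standard error 0.42, adjusted p = 0.0236 from limma). Neither passed the adjusted p limit of 0.01, and both differences were smaller than that of Areg. After rescaling by the median ratio Nrg1 was at 0.91 and Nrg4 at 0.52 (limma, adjusted p = 0.116 and 0.307). Ereg, Epgn and Btc, EGFR ligands in the same chromosome 5 cluster as Areg, were not analysed here. Of the 4 ErbB receptors, Erbb3 was in the table, with 5771 ± 1739 normalized counts in Mul1(+/+) and 2592 ± 863 in Mul1(−/−) (log2 difference −1.15, standard error 0.43, adjusted p = 0.0284 from limma), which missed the threshold. Egfr, the receptor of amphiregulin, was not analysed here.

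Of the genes for shedding and transport of EGF ligands, Adam8 passed the threshold and Adam9 did not, and this contrast turned with the scaling. Adam8, a membrane protease of leukocytes, went from 15.2, 12.4 and 8.98 to 45.3, 33.1 and 43.0 normalized counts (log2 difference 1.67, standard error 0.39, adjusted p = 0.00891 from limma). Adam9 had a lower mean in Mul1(−/−) (log2 difference −1.20, adjusted p = 0.0212 from limma). After rescaling by the median ratio Adam9 passed (−1.86, adjusted p = 0.00909 from limma) and Adam8 did not (1.04, adjusted p = 0.0544 from limma), and over 14 alternative fits Adam8 passed in 4. Adam17, the protease known to release amphiregulin, was not analysed here. Among 23 feedback and adaptor genes of EGFR signalling, the table held 2, both with lower means that did not pass with the values as deposited. Spry4, an inhibitor of receptor tyrosine kinase signalling that such signalling induces, measured 699, 471 and 360 normalized counts in Mul1(+/+) and 206, 90.6 and 167 in Mul1(−/−) (log2 difference −1.74, adjusted p = 0.0111 from limma). Sos1, the exchange factor that activates Ras, had a log2 difference of −1.06 (adjusted p = 0.0292 from limma).

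The table held 4 of 22 immediate early genes, 2 with higher and 2 with lower means, and Myc was the only one to pass. Myc, a transcription factor of cell growth, rose from 74.2, 72.6 and 49.8 to 1105, 291 and 446 normalized counts (log2 difference 3.00, standard error 0.52, adjusted p = 0.00591 from limma). It passed in 8 of the 14 alternative fits, with a log2 difference of 2.35 to 3.42. In normalized counts Myc was, like Areg, highest in Mul1(−/−) replicate 1. For Areg the lead over replicate 3 rests on the library factors, and replicates 2 and 3 could not be separated at this depth. Klf6 (log2 difference 1.26), Jund (−1.94) and Jun (−1.70) did not pass (limma, adjusted p = 0.0173, 0.0184 and 0.0988). Jun stood at 16607 normalized counts in Mul1(+/+) replicate 2, against 738 and 1376 in the other Mul1(+/+) libraries.

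Of 17 listed genes around YAP and TEAD, regulators for which Areg is a known target, the table held 4, of which 1 had a higher and 3 had a lower mean. Ankrd1, another target of YAP, rose from 8.98 ± 2.42 to 31.8 ± 7.65 normalized counts (log2 difference 1.72, standard error 0.41, adjusted p = 0.00909 from limma). Ankrd1 passed in 4 of the 14 alternative fits and was at 1.11 (adjusted p = 0.0607 from limma) after rescaling by the median ratio, where Lats2 passed as lower (−1.73, adjusted p = 0.00888 from limma). With the values as deposited, Cyr61, Yap1 and Lats2 had lower means (log2 differences −1.52, −1.10 and −1.07) and did not pass. Cyr61 overlapped between the groups and stood at 4308 normalized counts in Mul1(+/+) replicate 2, against 443 and 761 in the other Mul1(+/+) libraries. Without that replicate the log2 difference of Cyr61 was −0.55. Of 14 genes of the cAMP and CREB list, Areg was the only one in the table.

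The table held 6 of 26 acute phase and injury genes, 1 with a higher and 5 with a lower mean. Afp, the fetal albumin that returns in regenerating liver, fell from 2262 ± 490 to 584 ± 377 normalized counts (log2 difference −2.12, standard error 0.49, adjusted p = 0.00862 from limma). It passed in 8 of the 14 alternative fits, and the other 5 genes did not pass with the values as deposited. Of these 5, Saa4 passed as lower under the median ratio (−2.11, adjusted p = 0.00985 from limma), where 1031 genes of the table did. Saa4 and Crp passed as lower without Mul1(−/−) replicate 3 (limma, adjusted p = 0.00624 and 0.00142), where 1078 genes of the table did. The table held 3 of 26 cell cycle genes, each with a higher mean. Ccnb2, a mitotic cyclin, rose from 17.2 ± 9.66 to 76.0 ± 6.41 normalized counts (log2 difference 2.20, standard error 0.45, adjusted p = 0.00697 from limma). Ccnb2 passed in 7 of the 14 alternative fits and was at 1.57 (adjusted p = 0.0129 from limma) under the median ratio. Ccne1 (1.45) and Cdk1 (1.27) did not pass.

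**Figure D4:**
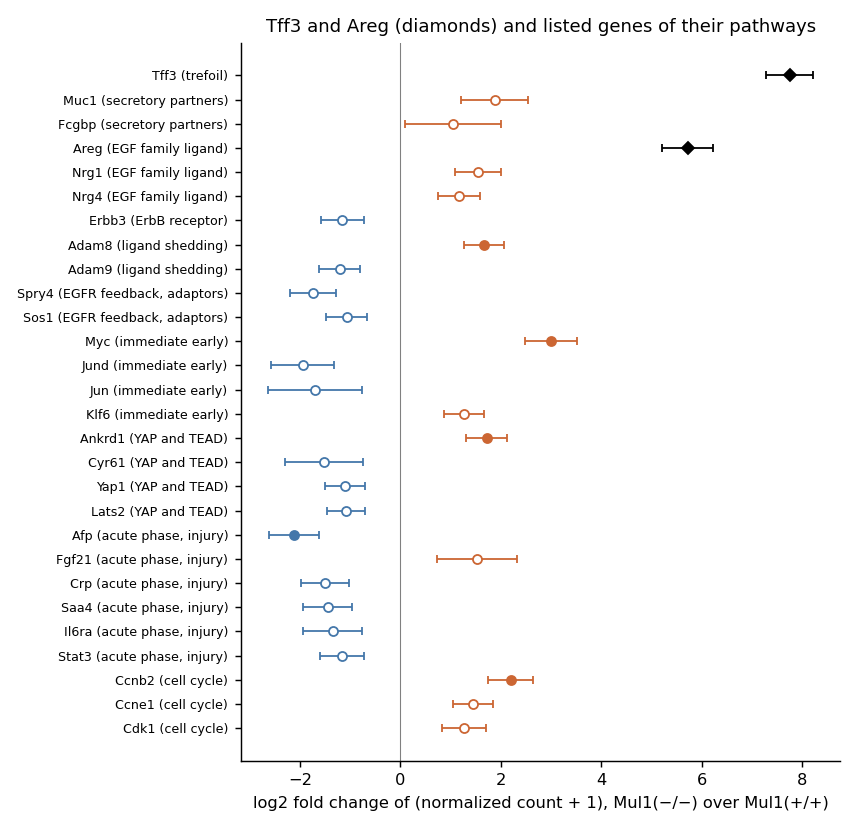
Log2 difference (x axis) of Tff3, Areg and the listed pathway genes in the table, Mul1(−/−) over Mul1(+/+) on log2(normalized count + 1), with bars for the standard error and filled points for genes past the threshold. Tff3 at 7.75 and Areg at 5.72 lie apart from all other listed genes, of which Myc at 3.00 is the highest and Afp at −2.12 the lowest.

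Tff3 and several genes of bile duct epithelium were higher in the Mul1(−/−) group, but most did not follow Tff3 within it. Tff3 peaked in Mul1(−/−) replicate 2, whereas Epcam, Prom1 and Krt19 were highest in replicate 1 and Spp1 in replicate 3. Mmp7 was highest in replicate 2, at 78.4 normalized counts against 77.4 in replicate 1. Of 23 cholangiocyte markers 9 were in the table, 8 of them higher in Mul1(−/−), against 56.8% of the table, and none was at 0 reads in any library. Mmp7 (log2 difference 4.77), Epcam, an epithelial adhesion molecule (2.19), and Spp1, which encodes osteopontin (1.66) and is named after its values were seen, rose past the threshold (limma, adjusted p = 0.00039, 0.00692 and 0.00889). Prom1, a membrane protein of progenitor and duct cells, was at 1.96 and did not pass (limma, adjusted p = 0.0116). After rescaling by the median ratio Mmp7 alone of these passed (4.27), while Epcam was at 1.53 (limma, adjusted p = 0.0103) and Spp1 at 0.998 (limma, adjusted p = 0.0501). Krt19, a keratin of bile ducts, had 70.0, 92.1 and 107 normalized counts in Mul1(+/+) and 1151, 176 and 147 in Mul1(−/−) (log2 difference 1.80, adjusted p = 0.0315 from limma), so its high value rests on Mul1(−/−) replicate 1. Aqp1, a water channel also found in vessels, fell (log2 difference −1.86, adjusted p = 0.00916 from limma). The number of cholangiocyte markers past the threshold was 4 of 9 with all libraries, 3 higher and 1 lower, against 16.7% and 7.43% of the table. It was 2 under the median ratio, 1 higher and 1 lower, 2 without Mul1(−/−) replicate 1, 0 without Mul1(−/−) replicate 2, 8 without Mul1(−/−) replicate 3 and 1 without any single Mul1(+/+) replicate. At an unadjusted p-value under 0.05 in limma, 9 passed with all libraries and 9 without Mul1(−/−) replicate 2, 6 without Mul1(−/−) replicate 1, 8 without Mul1(−/−) replicate 3, 6, 6 and 7 without Mul1(+/+) replicates 1 to 3, and 5 under the median ratio. In the same order of settings 3416, 2740, 2950, 3444, 2471, 3039, 2514 and 2495 genes of the table were under this limit. Nothing is read from how the marker counts change between settings.

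The summed level of the 9 cholangiocyte markers ranged from 5318 to 6340 normalized counts in Mul1(+/+) and from 6099 to 7441 in Mul1(−/−), so the sums overlapped. Aqp1 made up most of the sum in Mul1(+/+). Without Aqp1, a choice made after its values were seen, the 8 others summed to 1369 to 2014 in Mul1(+/+) and 5169 to 5668 in Mul1(−/−), a ratio of means of 3.32. The difference of Tff3 was larger than that of each of these markers. Tff3 was chosen for its high Mul1(−/−) values, which largely fixes this, so its ratios to the markers are only a description. Relative to Epcam, Tff3 was at 0.0942, 0.106 and 0.197 in Mul1(+/+) replicates 1 to 3 and at 4.52, 10.3 and 6.47 in Mul1(−/−), a ratio of means of 53.5. Divided in turn by each of the 8 markers, Tff3 did not overlap between the groups for 8 of 8, and the ratio of means ran from 4.24 relative to Mmp7 to 136 relative to St14, the marker at the upper end.

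Areg divided by the same markers did not overlap between the groups for 7 of 8. Relative to Epcam it was at 0, 0.0213 and 0.0302 in Mul1(+/+) and at 0.425, 0.274 and 0.448 in Mul1(−/−). The exception was Mmp7, to which Areg stood in a ratio of 0, 0.665 and 1.99 in Mul1(+/+) and 1.98, 0.937 and 2.36 in Mul1(−/−). In Mul1(+/+) both terms of that ratio rest on at most 3 reads. Areg was chosen in the same way as Tff3, so its ratios are only a description too. The part of bile duct cells in the level of Tff3 and of Areg was not tested.

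**Figure D5:**
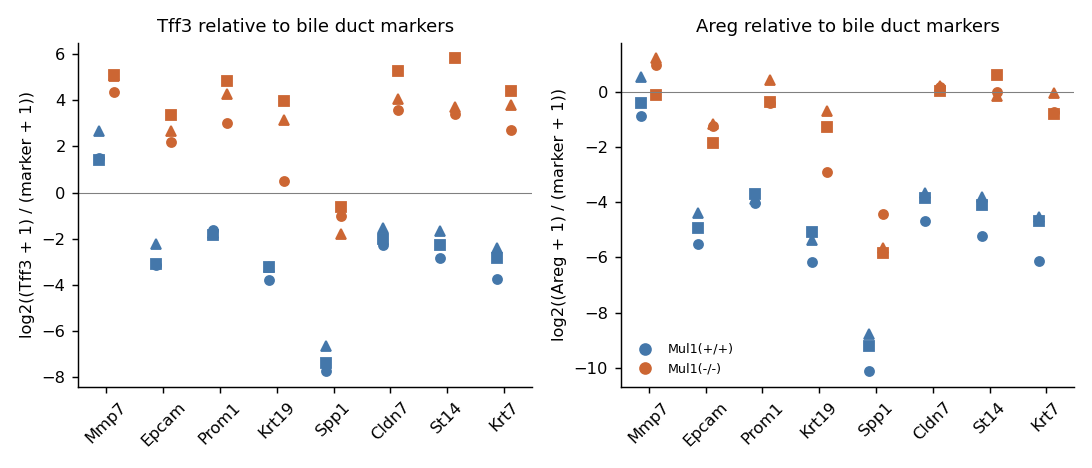
Ratio of Tff3 (left) and Areg (right) to each of 8 cholangiocyte markers in each library, with 1 added to both normalized counts and shown as log2 (y axis), with circles, squares and triangles for replicates 1 to 3. The Mul1(−/−) points lie above the Mul1(+/+) points for every marker with Tff3, and for 7 of 8 with Areg, where Mmp7 is the exception.

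Markers of other cell types moved as well. The table held 7 of 22 hepatocyte markers. Each of the 7 had a lower mean in Mul1(−/−), while 56.8% of the table was higher. Their sums were 803022 to 1000940 normalized counts in Mul1(+/+) and 291056 to 524344 in Mul1(−/−). With the values as deposited none of the 7 passed the threshold in limma, and all 7 had an unadjusted p-value under 0.05, as had 96.4% of the table. After rescaling by the median ratio Trf (−1.84) and Tat (−1.83) passed as lower (limma, adjusted p = 0.00888 for each), where 1031 genes of the table did. Under the table total Hnf4a passed as lower (−2.11, adjusted p = 0.00657 from limma), where 724 genes of the table did. Hnf4a, the transcription factor of hepatocyte identity, had 36283 ± 9988 normalized counts in Mul1(+/+) and 11501 ± 6636 in Mul1(−/−), the largest difference of the list (log2 difference −1.81, adjusted p = 0.0135 from limma). Serpina1d (−1.54), Fga (−1.40), Trf (−1.18) and Tat (−1.17) followed. The defining hepatocyte transcripts were thus present in all 6 libraries, at lower means in Mul1(−/−). Of 19 markers of type 2 immune and regulatory T cells, which include known sources of amphiregulin, Hdc alone was in the table, at 201, 298 and 157 normalized counts in Mul1(+/+) and 6324, 1388 and 235 in Mul1(−/−), with overlapping groups. In normalized counts Areg was highest in Mul1(−/−) replicate 1 too, a lead over replicate 3 that rests on the library factors. In Mul1(−/−) replicate 3 Hdc was within the range of Mul1(+/+) and Areg was above it. These are single libraries and 1 marker of 19, and nothing is read from them about the source of Areg. Of 17 neutrophil and macrophage markers, Lyz2 (log2 difference 1.16) and Csf3r (1.15) were in the table, both with overlapping groups. Of 19 markers of intestinal and pancreatic epithelium, other tissues that make Tff3 or lie beside the liver, 0 were in the table, and their levels were not analysed here. Of 5 sex-linked genes likewise 0 were in the table. The part of these cell types in the values of Tff3 and Areg was not tested.

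Few neighbours of either gene were in the table. Within 500 kb of the start of Tff3, 1 of the 13 protein-coding genes other than Tff3 was in the table, the tRNA methyltransferase subunit Wdr4 at 390 kb (log2 difference 1.45, adjusted p = 0.0114 from limma). Within 500 kb of Areg, 3 genes were in the table: Mthfd2l, a mitochondrial folate enzyme at 208 kb (log2 difference 1.56, adjusted p = 0.0120 from limma), the platelet chemokine Pf4 at 367 kb (2.50, adjusted p = 0.0151 from limma) and the non-coding RNA Gm19619 at 144 kb (1.44, adjusted p = 0.0239 from limma). None of these 4 genes passed the threshold, and all were higher in mean in Mul1(−/−), as were 56.8% of the table.

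The promoter of Areg is known to respond to cAMP through a CRE, and its proximal stretch is shown for that reason. The 56 bases lie at chr5:91139523-91139578 on the plus strand of GRCm38, and capitals mark the CRE (TGACGTCA), which begins 61 bases upstream of the annotated start, and the TATA box (TATAAA), which begins 31 bases upstream.
Areg promoter: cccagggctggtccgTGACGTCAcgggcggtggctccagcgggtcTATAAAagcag

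In a window from 250 bases before to 50 bases after the start, searched on both strands, the CRE was found in 1.79% of 32851 mouse promoters and the TATA box in 13.6%. The other motifs searched were AP-1 (TGANTCA, in 7.81% of all promoters), TEAD (GGAATG, in 14.7%), STAT (TTCNNNGAA, in 8.30%) and the CCAAT box (CCAAT, in 37.4%), and none of these letters occurs in the Areg window. The CRE reads the same on both strands and overlaps no other match. A match of letters is a description of the sequence, and binding was not measured here.

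The series as a whole sets limits on these values. The table's genes held 11932163 to 15385822 reads per library, which is part of each library, and 1 read was worth 0.817 to 0.886 normalized counts in Mul1(+/+) and 0.878 to 1.46 in Mul1(−/−). Mul1 itself was at 3276 ± 131 normalized counts in Mul1(+/+) and at 1252 ± 436 in Mul1(−/−), 38.2% of the former (log2 difference −1.44, adjusted p = 0.0126 from limma), with no overlap. An exact permutation test of 1 gene with 3 against 3 libraries cannot give a p-value below 0.1. The replicates are labelled as separate libraries. The p-values set a group difference against the spread between these libraries, in genes selected on that same difference.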

How the data were processed

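Liver mRNA libraries were made, sequenced and analysed by GENEWIZ, and the authors compared the genotypes with DESeq2 and its Wald test. The aligner, counting tool, genome build, annotation and strandedness are not given in the sources used here. The deposited library values are scores: read counts normalized by 1 factor per library, written with commas and, for 0, a dash. Low values gave the worth of 1 read, and 100% of values under 10000 were whole multiples of it (tolerance 0.1). The deposited log2 fold changes and p-values are the authors' test results. They were used only to describe the selection, which left adjusted p-values up to 0.049996 and log2 changes of 1.00 or more in size.

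The genes and lists were chosen with earlier results of these data known. Values were compared as log2(normalized count + 1), unfiltered, with limma 3.58.1 (R 4.3.3), genotype as the only term and Benjamini-Hochberg adjustment over 3542 genes. This scale understates the change of low genes. The authors had selected these 3542 genes on the same contrast in the same libraries. The adjusted p-values therefore rank the genes and are no independent test of them. The limma step was tested on simulated data in which most genes were unchanged. The table holds genes selected as changed, so that test does not cover the counts reported here. Named genes were Tff3, Areg, Mul1, up to 5 of each list by size of change, the 5 genes most like each of Tff3 and Areg (mean of at least 10) and table genes within 500 kb. A gene that this rule names for Areg is not reported here, and Spp1 and St14, outside the rule, were chosen after their values were seen. The plots show all listed genes in the table. Intervals are exact Poisson or conditional ones at 95%. The other steps used Python 3.11.15 (numpy 2.4.6, pandas 2.3.3, scipy 1.17.1; figures with matplotlib 3.10.9). Coordinates and transcript sequences are from GENCODE M21 on GRCm38, which holds 3529 of the identifiers, and the promoters from RefSeq on GRCm38. Alternatives were other pseudocounts, rescaled libraries, a filter on the mean, limma-trend, an adjusted p limit of 0.05, a replicate block and fits without 1 library.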

Additional observations from a re-analysis of the deposited data

How the results depend on the processing

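Tff3 and Areg were higher in Mul1(−/−) under every alternative run. The log2 difference of Tff3 was 7.13 after rescaling by the median ratio and 7.40 to 7.98 with each library left out. That of Areg was 7.20 with a pseudocount of 0.1, 4.13 with a pseudocount of 5 and 5.24 to 5.98 with each library left out. Its size is limited by 4 reads in Mul1(+/+). Rescaling shifted the median log2 difference of all genes by −0.66 (median ratio) and −0.30 (table total). Both factors came from the selected genes alone, so neither need be closer to the true scale.

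Counts of genes past the threshold were less stable, and the cause was not tested. The 854 genes of the table (591 higher, 263 lower) became 88 with a pseudocount of 0.1, 1399 with a pseudocount of 5, 1267 (236 higher, 1031 lower) under the median ratio, 1343 (619 higher, 724 lower) under the table total, 1869 with limma-trend, 3380 at an adjusted p of 0.05, and 10 to 2673 with 1 library left out: 10 without Mul1(−/−) replicate 2, 2673 without Mul1(−/−) replicate 3, and 25, 13 and 46 without Mul1(+/+) replicates 1 to 3. The 5 listed pathway genes became 0 with a pseudocount of 0.1 (21 at an unadjusted p under 0.05 in limma), 8 under the median ratio, 8 with limma-trend, 22 at an adjusted p of 0.05 and 0 to 13 with 1 library left out. The log2 difference of Fcgbp ran from −0.33 without Mul1(−/−) replicate 1 to 1.99 without Mul1(−/−) replicate 2.

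With the replicate block, limma called 0 genes of the table and 0 listed pathway genes, against 3314 and 22 at an unadjusted p under 0.05. Same-numbered libraries deviated together with correlations of 0.022, 0.352 and 0.054, and 2 of the 3 numbers were not the best match of their Mul1(−/−) library, so the numbers were not taken to pair the mice. The planned edgeR and DESeq2 alternatives were not run. The deposited values, with separator commas and dashes for 0, were entered as scores and not as counts, and no count test was fitted to the recovered reads.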
